A study of Phaseolus coccineus with 4 samples.

Results

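At the globular stage of the scarlet runner bean (Phaseolus coccineus) embryo, 163 genes were abundant in the embryo proper and present at a lower level in the suspensor. They were chosen from the measured values themselves. A gene was taken when its RPKM, the number of reads relative to gene length and library depth, reached 300 in each embryo proper library, and when the lower embryo proper value was at least 2 times and under 8 times the higher suspensor value. This ratio of the closest values is called the ratio below, and the fold of the 2 region means is called the fold. The 163 genes are 50.2% of the 325 genes that reached 300 RPKM in both embryo proper libraries, and they were drawn from 19883 genes in all. Of the other abundant genes, 146 had a ratio under 2 and 16 had a ratio of at least 8.

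The study holds 4 libraries, 2 from embryo proper tissue and 2 from suspensor tissue, each called a biological replicate by its label. All came from the cultivar Hammond's Dwarf Red Flower, from seeds of 1.6 to 2.5 mm taken 6 days after hand pollination, and no treatment or mutation is named. Each region was cut by laser from 6-micron paraffin sections, and 5 ng of its total RNA was amplified before sequencing. The number of embryos or plants behind a library is not given, so the spread between replicates may be partly technical.

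The embryo proper is the part of the young plant embryo from which the body of the seedling develops. The suspensor is the stalk that holds the embryo in the seed, passes nutrients and growth regulators to it, and later degenerates. In this species the suspensor is unusually large, and its cells enlarge and copy their genomes without dividing, whereas the cells of the globular embryo proper divide actively. The tables identify genes by ID alone. The reference table used here lists 34063 genes and holds none of these IDs, so no member has a name, a function or a sequence in what follows, and the regions could not be checked against marker genes.

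Depth was high in all 4 libraries. It came to 38967825 and 32855045 reads in embryo proper replicates 1 and 2, against 56899297 and 47091897 reads in suspensor replicates 1 and 2, as recovered from the deposited values. The suspensor libraries spent more of that depth on a few genes. The 23 genes that ranked among the 10 highest of any library took 10.8% and 9.24% of the reads in the embryo proper, against 25% and 34.6% in the suspensor. RPKM is a relative measure, so these shares bear on every level given for the suspensor.

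The 163 genes carried a large part of the embryo proper transcript signal and a small part of that of the suspensor. They made up 28.3% and 28.8% of all RPKM in embryo proper replicates 1 and 2, against 7.09% and 7.14% in suspensor replicates 1 and 2. The mean share was 28.6% ± 0.393 for embryo proper libraries and 7.11% ± 0.0364 for suspensor libraries (SD, n = 2 each), and the 2 libraries of a region nearly coincided. The direction of this difference follows from how the genes were chosen, and it was not tested. Counted as reads in place of RPKM, the members took 21.9% ± 0.398 of embryo proper reads and 5.99% ± 0.39 of suspensor reads (SD, n = 2 each). In a captured region, fewer cells that express a gene and less RNA per cell cannot be told apart.

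**Figure D1:**
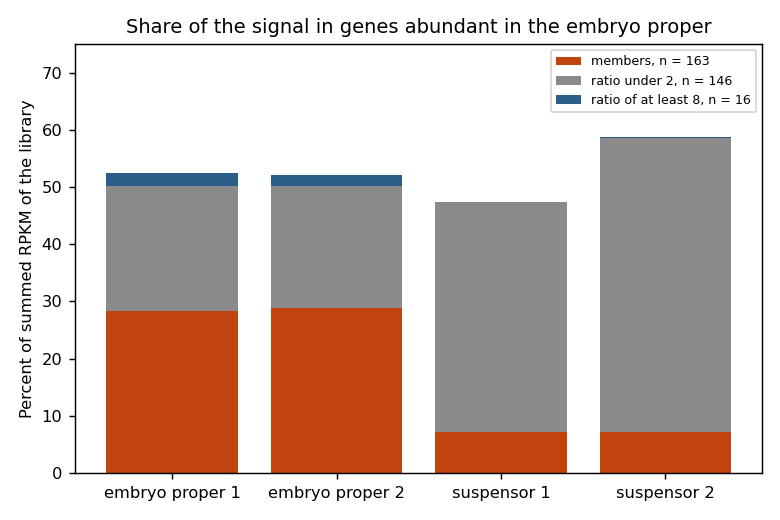
Bars give the percent of the summed RPKM of each library held by the 325 abundant embryo proper genes, split into the 163 members, the 146 genes with a ratio under 2 and the 16 with a ratio of at least 8. The members fill 28.3% and 28.8% of the embryo proper libraries, against 7.09% and 7.14% of the suspensor libraries.

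The abundant genes with a ratio under 2 differed less between the regions gene by gene, with a median fold of 1.64, although their summed share was larger in the suspensor. These 146 genes made up 21.9% and 21.3% of all RPKM in embryo proper libraries, against 40.3% and 51.5% in the suspensor, where the single most abundant gene alone held 16.1% and 28.5%. The 16 genes with a ratio of at least 8 held 2.29% and 2.02% in the embryo proper, against 0.0559% and 0.0493% in the suspensor. The members thus held more of the embryo proper signal than both other sets of abundant genes together.

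Members ranked high in the embryo proper, where the rule requires at least 300 RPKM. It also requires lower suspensor values, so the direction of the contrasts in this paragraph follows from the rule and was not tested. The members' median rank by RPKM was 140 in each embryo proper library, against 469 and 359 in suspensor replicates 1 and 2. Of the 10 highest genes, 6 were members in each embryo proper library, whereas no member was among the 10 highest of suspensor replicate 1 and 1 was in suspensor replicate 2. Among the 100 highest genes of a library, 59 and 63 were members in embryo proper replicates 1 and 2, against 12 and 15 in suspensor replicates 1 and 2. The median RPKM of the members was 749 and 747 in the embryo proper libraries, against 200 and 236 in the suspensor libraries.

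The most abundant member was Phvul.005G055500, the second highest gene of both embryo proper libraries. It stood at 14439 and 13337 RPKM in embryo proper replicates 1 and 2, against 4328 and 4516 RPKM in suspensor replicates 1 and 2. The 2 values of each region lay close together, and the fold was 3.14, or 1.65 on the log2 scale. This log2 value moved both ways with the scaling. It was 1.12 after median ratio rescaling and 1.29 with depth counted without the highest genes. With every library rescaled to the same sum it was 1.83, and after quantile normalization 2.60. Phvul.005G055500 ranked 12 and 9 in the suspensor libraries, so it was among the leading transcripts of both regions.

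The next members by level were also high in both regions, but they differed in how well replicates agreed. Phvul.005G104700 had 9512 and 7861 RPKM in the embryo proper, against 3505 and 3335 RPKM in the suspensor, a fold of 2.54. On the log2 scale this was 1.34. It was 0.82 after median ratio rescaling and 0.98 with depth counted without the highest genes. With the same sum it was 1.53, and after quantile normalization 2.33. Phvul.009G045800 had 8216 and 6648 RPKM in the embryo proper, against 2888 and 3318 RPKM in the suspensor, a fold of 2.39. Its ratio of 2.003 was the lowest of all members, so this highly abundant gene only just met the rule. Phvul.011G033900 had 9424 and 4900 RPKM in the embryo proper, against 849 and 1878 RPKM in the suspensor. Its replicates differed by 1.92-fold in embryo proper and 2.21-fold in suspensor libraries, which makes its fold of 5.25 less exact than the others. Its fold was 3.59 and 6.91 without embryo proper replicates 1 and 2, and 3.81 and 8.44 without suspensor replicates 1 and 2.

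The fifth and sixth by level differed in how far apart the regions were. Phvul.001G079100 had 3878 and 6040 RPKM in the embryo proper, against 1018 and 965 RPKM in the suspensor, a fold of 5. Phvul.002G327500 had 4258 and 4255 RPKM in the embryo proper, against 1682 and 1557 RPKM in the suspensor, a fold of 2.63. The 10 most abundant members together made up 31.4% and 28% of the RPKM of all members in the embryo proper, against 32.6% and 32.7% in the suspensor. These 10 genes thus held a similar part of the members' signal in both regions.

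**Figure D2:**
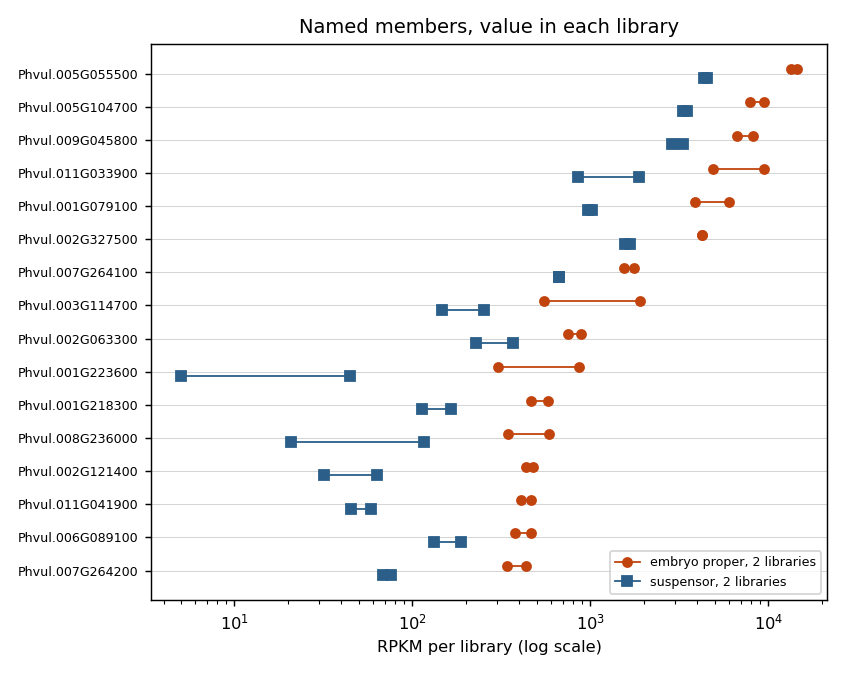
Each row is a named member, with circles for the 2 embryo proper libraries and squares for the 2 suspensor libraries on a log scale of RPKM. Rows are sorted by embryo proper mean. The suspensor values of Phvul.001G223600 and Phvul.008G236000 lie far apart, while those of Phvul.007G264100 coincide.

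Most members differed between the regions by a few fold. The median fold was 3.55, and the middle part of the members, between the 25th and 75th percentiles, ran from 2.95 to 4.52. The fold was under 3 for 43 genes, from 3 to under 5 for 90, from 5 to under 8 for 24 and at least 8 for 6. For comparison, the median fold was 1.35 over the 13050 of 13527 tested genes that were listed in all libraries. The rule holds the fold of every member at 2 or more, so a gap between these medians was fixed in advance. By library, the median was 3.55 and 3.23 for embryo proper replicate 1 over suspensor replicates 1 and 2, and 4.02 and 3.50 for embryo proper replicate 2 over the same. Put the other way, the median suspensor level was 28.2% of the embryo proper level, with a range of 4.28% to 47.2%.

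The ratio itself was concentrated near its lower limit, and over all 13527 tested genes 12.5% had a ratio from 2 to under 8. Its median was 2.83, the value of Phvul.001G218300, which had 465 and 575 RPKM in the embryo proper, against 114 and 164 RPKM in the suspensor. The ratio was from 2 to under 2.5 for 51 members, from 2.5 to under 3 for 43, from 3 to under 4 for 46 and from 4 to under 8 for 23. The lower limit thus cut through a continuous distribution. Next to it, Phvul.006G089100 at a ratio of 2.022 was a member, with 379 and 463 RPKM in the embryo proper, against 133 and 187 RPKM in the suspensor. Phvul.002G063300 was the third lowest, with 892 and 747 RPKM in the embryo proper, against 229 and 368 RPKM in the suspensor. Just outside, Phvul.009G214400 at 1.992 and Phvul.008G019800 at 1.979 were not members.

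The upper limit fell in a sparser stretch. Phvul.011G041900 had the highest ratio, 6.984, with 464 and 408 RPKM in the embryo proper, against 58.4 and 45.3 RPKM in the suspensor. Phvul.002G121400 followed at 6.908, with 436 and 474 RPKM in the embryo proper, against 63.1 and 31.9 RPKM in the suspensor. The nearest genes outside were Phvul.003G270000 at 8.159 and Phvul.002G263300 at 8.396. At the level limit, Phvul.009G017300 and Phvul.004G060000 were members with lower embryo proper values of 301 and 302 RPKM, and Phvul.001G210100 and Phvul.001G174900 were left out at 296 and 291 RPKM.

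**Figure D3:**
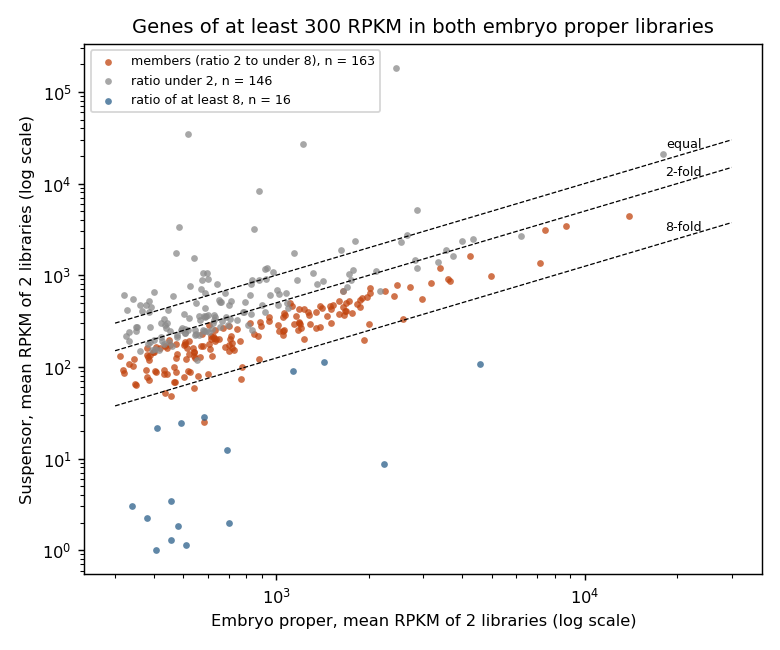
Each point is 1 of the 325 abundant embryo proper genes, placed by its mean RPKM in the embryo proper (horizontal) and in the suspensor (vertical), both on log scales. Dashed lines mark equal levels and 2-fold and 8-fold lower suspensor levels. The members form a band with a median fold of 3.55, and the 16 genes with a ratio of at least 8 are scattered below it.

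The band ran across the whole range of abundance. Among abundant genes with an embryo proper mean of 300 to under 500 RPKM, 38 of 89 (42.7%) were members. The share was 57 of 130 (43.8%) from 500 to under 1000 RPKM, 49 of 70 (70.0%) from 1000 to under 2000 RPKM and 19 of 36 (52.8%) from 2000 RPKM up. The median ratio of the members in these classes was 2.80, 2.83, 2.82 and 2.94 in order of level, and the limits of the rule hold it in a narrow range. These are descriptions of the genes in 4 libraries, since genes are not replicates.

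A sizeable part of the members was abundant in the suspensor as well. Both suspensor values were at least 300 RPKM for 49 members (30.1%), which together made up 61.0% of the members' summed embryo proper mean and had a median fold of 3.28. At the other end, both suspensor values were under 100 RPKM for 17 members (10.4%), with a median fold of 5.58. Every embryo proper value of a member was at least 300 RPKM, so low suspensor values alone raise the lowest possible fold. No contrast is drawn between these medians. No member was missing from any library. The fewest reads behind a member were 7087 and 6495 in embryo proper replicates 1 and 2, against 1229 and 328 in suspensor replicates 1 and 2, so counting error was small throughout. The lowest suspensor share of any abundant gene was 0.223% of its embryo proper level, against 4.28% for the lowest member. The gene at 0.223% had a ratio of at least 8 and so was left out by the rule.

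Replicates of a region were close for most members. The median difference between replicates, on the log2 scale of RPKM, was 0.259 for the embryo proper and 0.299 for the suspensor, or 1.20-fold and 1.23-fold. The replicates were within 1.5-fold of each other for 142 of 163 members among embryo proper values and for 128 among suspensor values. Over the 13050 tested genes listed in all libraries, the same medians were 0.876 for embryo proper and 1.199 for suspensor pairs. Abundant genes with a ratio under 2 had medians of 0.337 and 0.358, only slightly above those of the members. The rule compares the closest values of the regions and so favours genes with close replicates, and nothing is drawn from this. The order of the members by level was also alike between replicates, with Spearman's rho across the 163 genes of 0.903 for embryo proper and 0.898 for suspensor replicates.

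**Figure D4:**
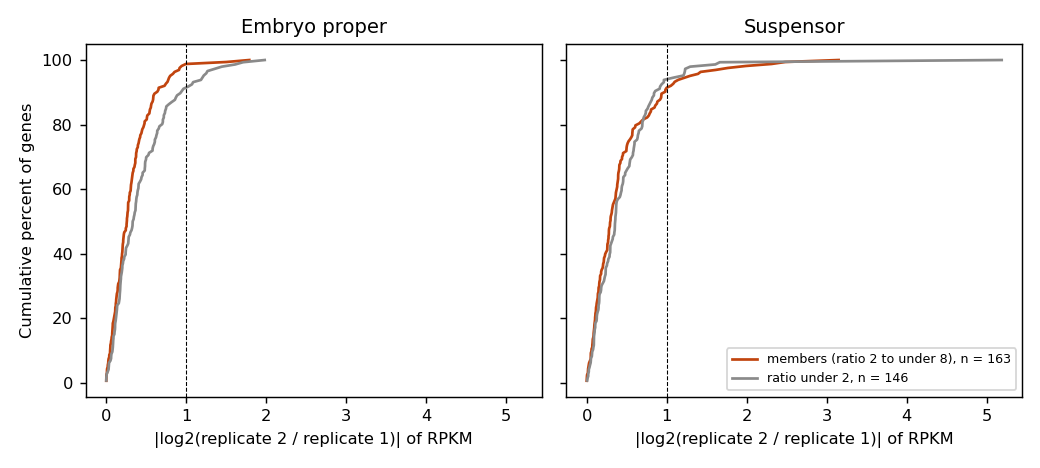
Lines give the cumulative percent of genes (vertical) against the size of the log2 ratio of replicate 2 over replicate 1 (horizontal) in the embryo proper (left) and the suspensor (right). The dashed line marks a 2-fold difference, passed by 2 members on the left and 15 on the right.

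A minority of members varied strongly, mostly in the suspensor. Replicates lay over 2-fold apart for 2 members in the embryo proper and for 15 in the suspensor, and of these 15 the value was higher in replicate 2 for 12 and in replicate 1 for 3. Phvul.001G223600 varied most in the suspensor. It had 304 and 860 RPKM in the embryo proper, against 44.8 and 5.04 RPKM in the suspensor, a difference between suspensor replicates of 8.87-fold on 3517 and 328 reads. Its fold of 23.4 was the largest of all members, although its ratio of 6.78 kept it within the rule. Its fold was 115 without suspensor replicate 1, 13 without suspensor replicate 2 and 12.2 without embryo proper replicate 2, so its size was poorly fixed.

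The other strongly varying genes also had folds that moved with a single library. Phvul.003G114700 differed most between embryo proper replicates, with 1903 and 551 RPKM in the embryo proper, against 252 and 146 RPKM in the suspensor. Its fold was 2.77 with embryo proper replicate 1 left out and 9.56 with replicate 2 left out. Phvul.008G236000 had 585 and 344 RPKM in the embryo proper, against 20.7 and 116 RPKM in the suspensor, where its replicates were 5.59-fold apart. Its fold was 4.01 without suspensor replicate 1 and 22.4 without suspensor replicate 2. In all 3 genes every embryo proper value was above every suspensor value, as the rule requires of all 163, and as was the case for 37.5% of the 13527 tested genes.

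Members were short compared with genes in general. Gene length is no part of the rule, and it was recovered from the values, because each RPKM stands for a whole count of reads over a fixed length and depth. The median length was 897 bases for the members, 1092 for the 146 abundant genes with a ratio under 2, 1110 for the 16 with a ratio of at least 8, and 1628 for all tested genes. Lengths under 1000 bases were found for 99 members (60.7%), for 44.5% of the genes with a ratio under 2 and for 19.8% of all tested genes. The shortest members were Phvul.002G052200 with 246 bases and Phvul.L003800 with 273 bases, and the longest was Phvul.008G197100 with 4414 bases, all 3 named after their lengths were seen. RPKM divides by length, so short genes reach 300 RPKM with fewer reads. Among the members, length followed neither level nor fold closely, with Spearman's rho of -0.115 with the embryo proper mean and 0.114 with the fold across 163 genes.

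Members were spread over the ID series. The 3 digits after the prefix of most IDs run from 001 to 011, and each of these 11 series held between 7 and 23 members. This was 0.87% to 1.53% of the tested genes in the series, against 1.2% over all tested genes. A further series marked L held 1 member among 25 tested genes (4.0%). Only 1 pair of members had successive ID numbers, Phvul.007G264100 and Phvul.007G264200. The first had 1759 and 1543 RPKM in the embryo proper, against 665 and 668 RPKM in the suspensor, a fold of 2.48. The second was lower and further apart, with 342 and 433 RPKM in the embryo proper, against 68.6 and 75.6 RPKM in the suspensor, a fold of 5.38. Genes in such pairs made up 1.23% of the members (2 genes) and 7.53% of the abundant genes with a ratio under 2 (11 genes). For pairs with ID numbers up to 1000 apart, the shares were closer, 11.7% and 14.4%.

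A test over all genes was made for the background, although the rule had already used the same contrast. With limma on log2(RPKM + 1), 638 of 13527 genes (4.72%) were called higher in the embryo proper at a Benjamini-Hochberg adjusted p under 0.05, and 284 were called lower. After median ratio rescaling the split was 284 higher and 347 lower, after quantile normalization 412 and 389, and with depth counted without the highest genes 331 and 302. Of the 163 members, 131 were among the 638 genes called higher in the values as deposited, and 32 were not. The members called numbered 35 after median ratio rescaling, 55 with depth counted without the highest genes and 70 after quantile normalization. In limma fits without a trend or without a filter 0 were called, and 138 and 163 had an unadjusted p under 0.05. Over all genes, 2426 of 13527 and 2589 of 19883 had such a p in the same direction in these 2 fits, and members were picked on this contrast. The 131 members called as deposited had a median fold of 3.8 and a median embryo proper mean of 949 RPKM. For the 32 not called, these medians were 2.74 and 458 RPKM. Since members were picked for a difference in these libraries, the count is given as a description only. With a library left out, a region rested on a single library, so only the size of the difference is given here. The members' median log2 ratio of region means was 1.86 and 1.74 without embryo proper replicates 1 and 2. It was 1.74 and 1.91 without suspensor replicates 1 and 2, against 1.83 with all libraries. Among the named genes, Phvul.006G089100, Phvul.002G063300, Phvul.003G114700 and Phvul.008G236000 were not called in the fit of the values as deposited.

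How many genes belonged to the group depended on how the libraries were scaled. As deposited, 163 genes met the rule as written, against 36 with the regions exchanged. When each library was rescaled by the median ratio over genes, 62 genes met the rule, 60 of them members, and 46 met it with the regions exchanged. When depth was counted without the 23 genes that were among the 10 highest of any library, the counts were 104 and 57, and 96 of the 104 were members. Quantile normalization gave 84 and 45 genes, and rescaling every library to the same sum gave 197 and 32. In every one of these 4 scalings, 60 members met the rule. In all 163 members each embryo proper value stayed above each suspensor value under these scalings, with the lowest ratio at 1.25 after the median ratio rescaling. A ratio of at least 2 was required of every member, so the scalings that multiply each library by a factor could not turn its direction. Quantile normalization works on ranks and has no such factor, but the members were picked for the same difference. No stability is read from any of these scalings. The size of the difference, and with it membership, moved with the scaling.

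**Figure D5:**
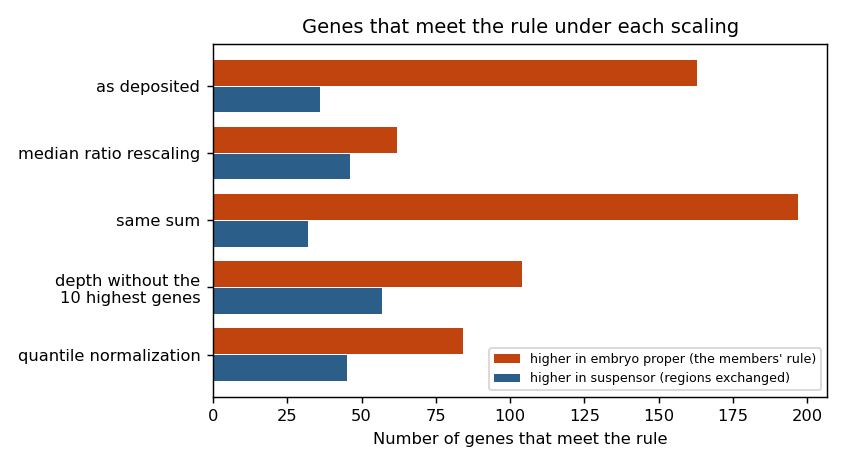
Bars give the number of genes that met the rule as written (higher in embryo proper) and with the regions exchanged (higher in suspensor), for the values as deposited and 4 other scalings. The count as written is 163 as deposited and from 62 to 197 under the others, and the exchanged count is from 32 to 57.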

How the data were processed

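Total RNA from 4 laser-captured samples was amplified and sequenced, per the labels' protocols. Each library has 1 deposited table, in which the authors give RPKM per gene. Bowtie 0.12.7 and bedtools are named in the submitters' processing notes. How reads were assigned (build, annotation, strand, reads with several matches) was not given in the sources used here, so near-identical or overlapping genes may carry each other's signal. The reference table that held none of the IDs is of a Phaseolus coccineus assembly. Levels and recovered lengths may therefore rest on the gene models of another assembly, possibly of another species. Zeros are not listed, and genes absent from a table were taken as 0.

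The members and lists were chosen with earlier results of these data known. Named genes are the 6 highest members, the 3 with the highest and the 3 with the lowest ratio, those with the largest replicate differences, the one at the median ratio, and those with successive IDs. Because no ID could be paired with a name, the planned gene lists were not used.

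For the background, the 13527 genes that reached 1 RPKM in 2 or more of the 4 libraries were fitted with limma 3.58.1 in R 4.3.3 on log2(RPKM + 1), with region as the only term and a trended eBayes. Adjusted p-values are two-sided. No label says that equal replicate numbers pair the samples, so the fit had no block.

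Reads, lengths and depths were recovered as the smallest common gene length that gave whole reads in all libraries (tolerance 0.02 reads). Both steps were tested on simulated data. There, after the simulation had been revised once, limma's calls held a somewhat larger share of false ones than the threshold allows, and few of the smaller differences were called. No molecular identifiers are described, so reads are not independent molecules, and their number covers counting error only.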

Additional observations from a re-analysis of the deposited data

How the results depend on the processing

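The number of members (163) was 62 after median ratio rescaling, 84 after quantile normalization, 104 with depth counted without the 10 highest genes of any library (added after the data were seen), 108 with a level of at least 500 RPKM and 69 with a ratio of at least 3. It stayed within 1.5 times under the other settings, among them 197 with every library rescaled to the same sum and 228 when region means were compared, and was 173 to 221 with a library left out. The median log2 ratio of region means (1.83) was 1.28 after median ratio rescaling, 1.45 after quantile normalization and with depth without the 10 highest genes, 2.02 with the same sum, and 1.74 to 1.91 with a library left out. The members' share of recovered reads came to 21.9% for embryo proper and 5.99% for suspensor libraries. The median length was 864 bases for members with an embryo proper mean of at least 500 RPKM, against 897 bases for all members. After median ratio rescaling, the median replicate difference of members was 0.393 for the suspensor, against 0.299 as deposited. For the embryo proper it was 0.221, against 0.259.

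Members called higher (131) numbered 35 after median ratio rescaling, 70 after quantile normalization, 55 with depth without the 10 highest genes, 0 with no filter (all 163 had an unadjusted p under 0.05 there), 0 without a trend (138 at an unadjusted p under 0.05) and 0 to 1 with a library left out. Over all genes, an unadjusted p under 0.05 in the same direction was found for 2426 of 13527 without a trend and 2589 of 19883 with no filter. Genes called higher and lower in the embryo proper (638 and 284) numbered 1337 and 526 at pseudocount 0.1, 280 and 182 at pseudocount 5, and 10 and 11 unfiltered. They were 284 and 347 after median ratio rescaling, where lower calls outnumbered higher ones, 412 and 389 after quantile normalization, 423 and 212 without a trend, and 331 and 302 with depth without the 10 highest genes. Over all genes tested, the median log2 fold change was 0.45 as deposited, 0.01 with the median ratio rescaling and 0.61 with the same sum. Voom on the recovered reads, also added later, gave 1319 and 449. The replicate block gave 1524 and 658, with 159 members called, although same-numbered libraries did not deviate together from their region means (Pearson's r = -0.03 across genes). With a library left out, 0 to 27 were higher and 0 to 21 lower, in fits with fewer residual degrees of freedom that take the lone sample to vary like the other region. Why fewer genes were called in these fits and without a filter was not tested. The rule fixes the direction of the named genes with a library left out or rescaled by these factors. They were picked for the same difference, so their direction says nothing about stability, also after quantile normalization.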
